A study of Mus musculus with 2 samples.

Results

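Germline genes are a class of genes used in sperm and egg precursors and kept off in most body cells by methylation of CpG-rich promoters. Here 10 such genes, Dazl, Ddx4, Tex101, Mael, Sycp3, Slc25a31, Taf7l, Asz1, Hormad1 and Stk31, were taken by symbol from a gene table of 24532 rows, and all 10 were present. They were compared by RNA-seq between 2 lines of mouse embryonic stem cells (ESCs), E14 and E14-Sox2TA/WT. E14 is an established ESC line with wild-type Sox2. E14-Sox2TA/WT cells are a single-cell-derived E14 clone, edited with CRISPR/Cas9, in which threonine 258 of Sox2, a site for the sugar modification O-GlcNAc, is changed to alanine in 1 allele. Per the study's methods, both lines were kept in serum with leukemia inhibitory factor. The clone was in addition selected and maintained with 2i, a pair of Mek and Gsk3 inhibitors withdrawn before use. Genotype, clone and culture history thus cannot be told apart.

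In mice, germline promoters of this kind are methylated around implantation of the embryo and lose methylation in primordial germ cells, the founders of the germ line, where the genes then come on. ESCs resemble the embryo near implantation and commonly hold low levels of these transcripts. Beside DNA methylation, a variant Polycomb complex, PRC1.6, represses many of the same promoters. Its subunits Mga and Max bind E-box motifs with the core CACGTG, and its subunit E2f6 binds motifs with the core TCCCGC. DNA methylation itself was not measured in these libraries, so the class name describes what is known of the genes and was not tested.

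Because repression of such genes is known to act at their promoters, the promoter sequences of the members were examined first. RefSeq promoter windows (GRCm38.p6, 250 bases before to 50 bases after the start, 300 bases in all) were found for all 10 genes, giving 12 windows, since Hormad1 and Stk31 had 2 each. The members' windows held a median of 24 CpG dinucleotides, from 15 in Sycp3 to 38 in Ddx4, beside a median of 7 over all 32841 windows. Searched on both strands, CACGTG occurred in 7 of 10 genes (9 of 12 windows, 75%), beside 7.15% of all windows and 11.3% of the 11377 windows with at least 15 CpGs. TCCCGC, likewise on both strands, occurred in 5 of 10 genes (6 of 12 windows, 50%), beside 19.98% of all windows and 45.4% of the CpG-rich windows. Thus CACGTG was more frequent among the members than among CpG-rich promoters at large, whereas TCCCGC was about as frequent. Mael, Slc25a31, Hormad1, Sycp3 and Ddx4 held both motifs, which 5.05% of CpG-rich windows did. Taf7l and Stk31 held CACGTG alone, and neither motif was found in the windows of Dazl, Tex101 and Asz1. A match describes letters and does not show binding.

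The 120 bases just upstream of the start are shown for 4 members, 5′ to 3′ on the gene's own strand, with each match in capitals. Because both strands were searched, the E2f6-type motif also shows as its reverse complement, GCGGGA. Hormad1 and Sycp3 were chosen because each carried a pair of CACGTG motifs close to the start, Slc25a31 as a member with 1, and Tex101 because it had neither motif and yet showed the lowest ratio of the measured members. The Hormad1 stretch lies at chr3:95559557-95559676 (plus strand), the Sycp3 stretch at chr10:88459467-88459586 (plus strand), the Slc25a31 stretch at chr3:40708751-40708870 (plus strand) and the Tex101 stretch at chr7:24672051-24672170 (minus strand).
Hormad1: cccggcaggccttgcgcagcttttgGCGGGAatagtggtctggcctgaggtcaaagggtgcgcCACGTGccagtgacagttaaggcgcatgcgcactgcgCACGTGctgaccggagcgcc
Sycp3: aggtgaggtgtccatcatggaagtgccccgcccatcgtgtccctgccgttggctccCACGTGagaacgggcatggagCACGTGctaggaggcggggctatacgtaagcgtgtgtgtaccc
Slc25a31: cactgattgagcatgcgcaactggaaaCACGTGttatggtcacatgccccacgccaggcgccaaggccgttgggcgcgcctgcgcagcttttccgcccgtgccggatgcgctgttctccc
Tex101: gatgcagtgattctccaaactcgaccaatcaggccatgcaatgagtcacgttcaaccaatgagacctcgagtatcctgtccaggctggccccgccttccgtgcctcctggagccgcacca

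In Hormad1 the 2 CACGTG motifs began at positions -57 and -20 from the start, and the E2f6-type match at -95. In Sycp3 the 2 CACGTG motifs began at -64 and -43, and its E2f6-type match, at -147, lies outside the stretch shown. In Slc25a31 CACGTG began at -93. These are the positions drawn in the map of promoter motifs.

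**Figure D1:**
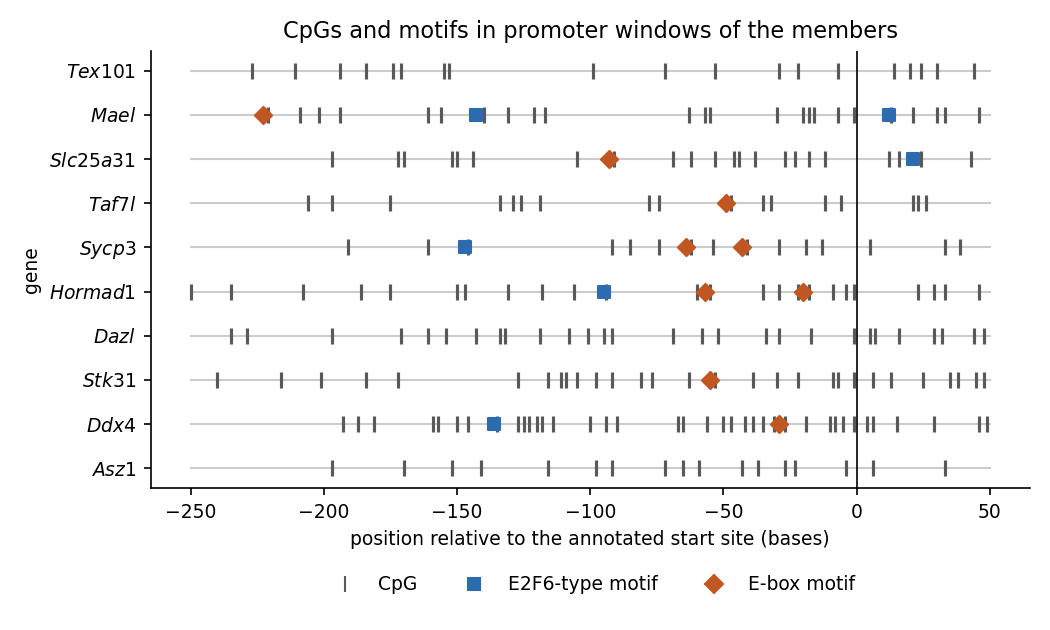
Positions of CpGs (ticks), CACGTG (diamonds, E-box motif) and TCCCGC (squares, E2F6-type motif) in 1 promoter window of each of the 10 members, on an axis of bases from the transcription start (0). CACGTG lies within 100 bases upstream of the start in 6 of the 7 members that hold it, and farther upstream, at position -223, in Mael.

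The libraries held 60263536 reads in E14 and 44609228 in E14-Sox2TA/WT cells, with reads for 17645 and 16764 genes, and each genotype had 1 library. The differences are thus between single libraries, without replicates or p-values. The 95% intervals after log2 ratios were taken from the reads by the exact Clopper-Pearson method and cover counting error only. The ESC markers were abundant in both libraries, with Pou5f1 at 1725 and 1759 TPM and Sox2 at 373 and 274 TPM in E14 and E14-Sox2TA/WT cells, respectively. TPM (the standard transcript abundance unit) is scaled by gene length and library, so that it can be compared between genes. As these are bulk samples, fewer cells with a transcript and less transcript per cell cannot be told apart.

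The members were not silent in E14. Sycp3 (85.4 TPM), Mael (66.5 TPM) and Ddx4 (32.6 TPM) were the most abundant, and Sycp3 exceeded 88.8% of all genes with reads. Hormad1, Taf7l and Dazl followed at 16.9, 16.7 and 16.3 TPM, and the counting intervals of these 3 overlapped. Tex101 (8.91 TPM) and Stk31 (8.30 TPM), whose intervals also overlapped, lay near the middle of the genes with reads, Slc25a31 stood at 4.83 TPM, and Asz1 was close to absent at 0.0911 TPM. In E14-Sox2TA/WT cells, Sycp3 (32.2 TPM) stayed on top and Ddx4 (26.5 TPM) came second, ahead of Mael (16.7 TPM). Dazl (9.53 TPM), Hormad1 (7.26 TPM), Stk31 (5.21 TPM) and Taf7l (4.50 TPM) came next, the last 2 with overlapping intervals, and Tex101 (1.33 TPM) and Slc25a31 (1.26 TPM) could not be ordered within counting error. The number of members at 10 TPM or more was 6 in E14 and 3 in E14-Sox2TA/WT cells.

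**Figure D2:**
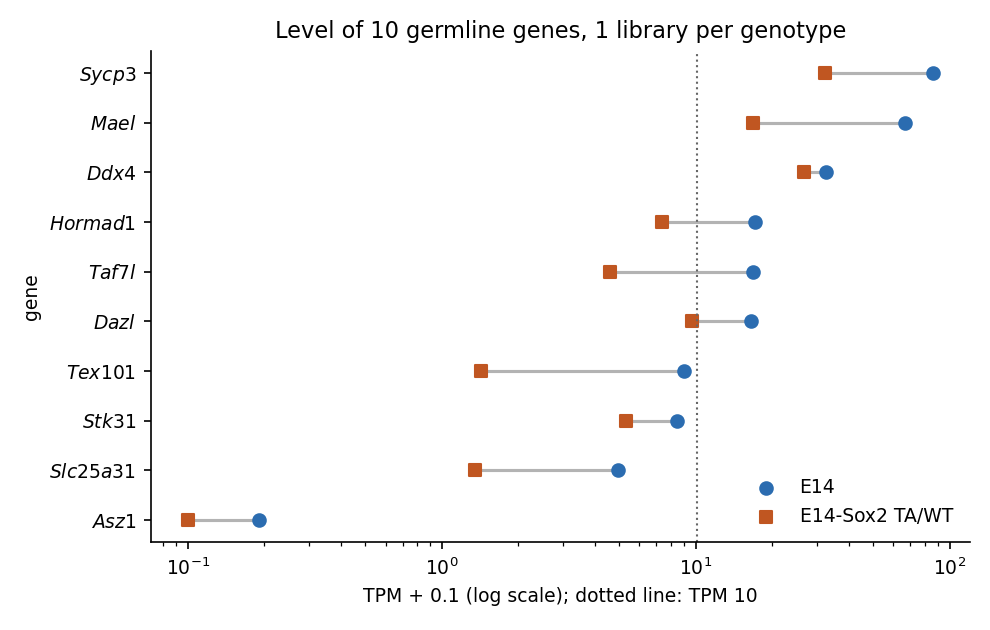
TPM of each of the 10 members in the E14 and E14-Sox2TA/WT libraries, 1 point per library, on a log axis of TPM + 0.1 with a dotted line at 10 TPM. The E14-Sox2TA/WT point lies left of the E14 point for every member, for Asz1 by 5 reads against 0, with the widest gap at Tex101 and the narrowest, leaving Asz1 aside, at Ddx4.

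In E14-Sox2TA/WT cells, 9 of the 10 members were lower, each with a counting interval below no change, and Asz1, with 5 reads against 0, showed no detectable difference. The filter of the study's methods, 10 TPM or more in either library, kept 6 members, of which 4 fell more than 2-fold, beside 4.07% (370 of 9094) of all genes under that filter. Taf7l, Hormad1 and Dazl passed it through E14 alone, where they were higher, so that this count is a description only. Since several members lie below that filter, a lower one was also used, and genes whose mean over both libraries was 1 TPM or more are called measured here. Of the measured members, 6 of 9 fell more than 2-fold, beside 8.44% of all measured genes, and none rose more than 2-fold, beside 5.86%. The 6 were Tex101, Mael, Slc25a31, Taf7l, Sycp3 and Hormad1, and the counting interval of each lay wholly past 2-fold. The shares of all measured genes with intervals below no change or wholly past 2-fold were not computed. The median log2 ratio of the 9 members was -1.41, beside 0.042 over all measured genes. With Asz1 set to 3 reads in E14-Sox2TA/WT cells, the median of all 10 was -1.32. Of all measured genes, 46.8% were lower by any amount. The members were chosen with earlier results of these data known, so their counts are a description only.

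Low genes differ past 2-fold more often than abundant ones, so the members were also read against genes of like level. Among genes between 1 and 5 TPM in the mean, 22.6% fell more than 2-fold, and the 1 member there, Slc25a31, did. Between 5 and 10 TPM the share was 11.4%, and Tex101 fell past 2-fold whereas Stk31 did not. Between 10 and 20 TPM the share was 4.92%, and Taf7l and Hormad1 fell past it whereas Dazl did not. Between 20 and 50 TPM it was 2.76%, with Mael past it and Ddx4 not, and between 50 and 100 TPM it was 2.45%, where Sycp3 was past it. The 6 members past 2-fold thus had mean levels between 3.04 TPM (Slc25a31) and 58.8 TPM (Sycp3), with 1 or 2 in each range. No member lay among the 1733 genes at 100 TPM or more, of which 2.02% fell.

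**Figure D3:**
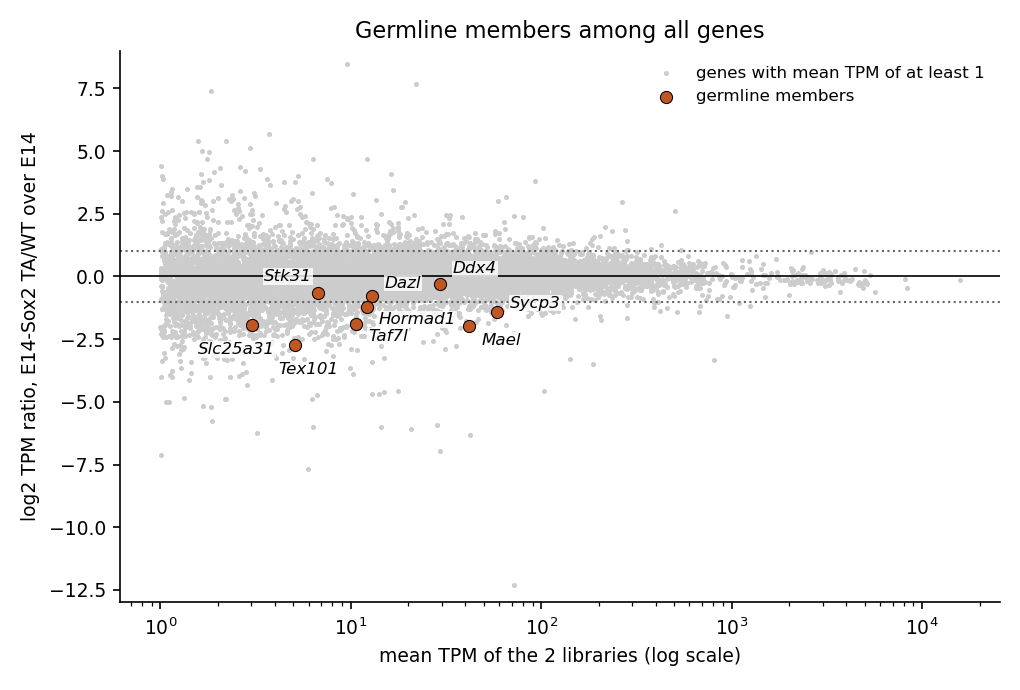
log2 TPM ratio (E14-Sox2TA/WT over E14) against mean TPM on a log axis, for all measured genes (grey) and the 9 members among them (orange); dotted lines mark 2-fold and genes at 0 in 1 library are not drawn. The members lie below 0 from Slc25a31, the lowest in level, up to Sycp3, the highest, and 6 of them are under the lower dotted line.

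Among the 5 members that act in germ granules and RNA control, Mael fell the most. Mael, which encodes Maelstrom, a factor needed for silencing of transposons through piRNAs (small RNAs of the germ line), lies at chr1:166201385-166238744 on the minus strand. It had 3236 reads in E14 and 544 in E14-Sox2TA/WT cells, a log2 TPM ratio of -1.996 (-2.13 to -1.86), or 3.99-fold lower. Ddx4, the Vasa RNA helicase and a standard germ cell marker (chr13:112598333-112652633), had 2916 and 1596 reads and a ratio of -0.30 (-0.39 to -0.21), 1.23-fold lower. Thus Mael and Ddx4, with about as many reads in E14 and both with CACGTG and TCCCGC in their promoter windows, differed in the size of their change, and their counting intervals did not overlap.

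Dazl, which encodes an RNA-binding protein of germ cells (chr17:50279393-50293620), had 1518 and 591 reads, with a ratio of -0.78 (-0.92 to -0.64). Stk31, a germ cell gene for a Tudor-domain protein with a kinase-like region (chr6:49395506-49469506), had 847 and 356 reads, with a ratio of -0.67 (-0.86 to -0.49). Both were lower by less than 2-fold, 1.71-fold for Dazl and 1.59-fold for Stk31. Asz1, which encodes a protein of the piRNA machinery at mitochondria (chr6:18050964-18109061), had 5 reads in E14 and 0 in E14-Sox2TA/WT cells. The counting interval of its ratio reached 0.70 on the log2 scale and so included no change. In CPM (reads scaled to the library total), the 5 reads came to 0.0830, with an exact Poisson interval of 0.0269 to 0.194. This overlapped the interval of 0 reads, which reached 0.0827, so no difference in Asz1 was detectable at this depth.

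Both genes of the meiotic chromosome axis fell. Sycp3, a structural protein of the synaptonemal complex, which joins paired chromosomes in meiosis (chr10:88459587-88473236), had 3020 reads in E14 and 763 in E14-Sox2TA/WT cells, with a ratio of -1.41 (-1.53 to -1.29), or 2.65-fold lower. Hormad1, which marks unpaired chromosome axes (chr3:95559677-95587863), had 881 and 253 reads, with a ratio of -1.22 (-1.43 to -1.02), or 2.34-fold lower. These 2 values are less certain than the others for reasons of sequence. Sycp3 shares 43.0% of its 50-base words with Chpt1, a phospholipid synthesis gene whose end overlaps it on the opposite strand, and the use of strand in counting is not given in the sources used here. Chpt1 itself had 1177 and 520 reads, with a ratio of -0.80 (-0.95 to -0.65), and the summed TPM of both genes gave -1.29. Hormad1 shares 22.9% of its words with the pseudogenes Gm15529 and Gm7167, which are not rows of the table. No shared words were found for the other 8 members.

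The remaining 3 members have other roles in spermatogenesis, and all fell past 2-fold. Tex101, which encodes a surface glycoprotein of germ cells involved in sperm fertility (chr7:24668012-24672050), had 296 reads in E14 and 30 in E14-Sox2TA/WT cells. Its ratio of -2.75 (-3.34 to -2.20), 6.71-fold lower, was the lowest of the members, with a wide interval because of its few reads. Slc25a31, the germline ADP/ATP carrier of mitochondria, also called Ant4 (chr3:40708871-40726094), had 321 and 56 reads and a ratio of -1.94 (-2.38 to -1.53), 3.84-fold lower. Taf7l, an X-linked germ cell variant of the general transcription factor subunit Taf7 (chrX:134460116-134476505), had 1018 and 184 reads and a ratio of -1.89 (-2.13 to -1.67), 3.71-fold lower. The counting intervals of Mael, Slc25a31 and Taf7l overlapped one another.

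**Figure D4:**
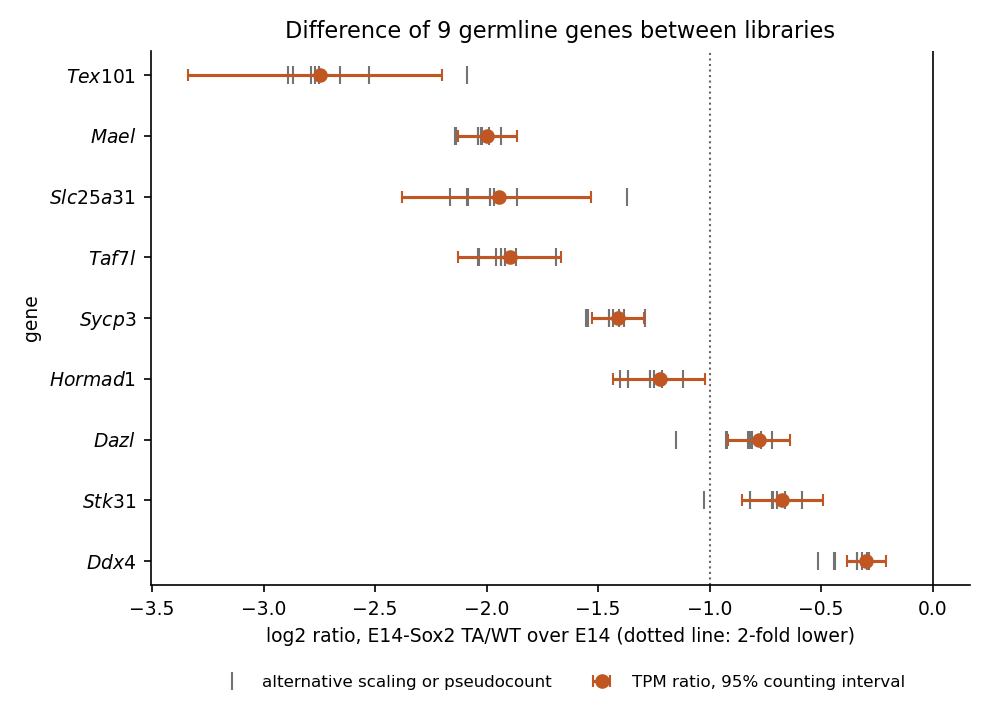
log2 TPM ratio (E14-Sox2TA/WT over E14) of the 9 measured members, as points with bars for the 95% counting interval; grey ticks are the ratio under the alternative scalings, pseudocounts and the GC and length correction (for Sycp3 also summed with Chpt1). Tex101 to Hormad1 lie wholly left of the dotted 2-fold line, while Dazl, Stk31 and Ddx4 lie between it and 0, with 1 alternative each past the line for Dazl and Stk31.

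The promoter motifs did not sort the members by the size of the change. The 7 members with CACGTG ranged from -1.996 (Mael) to -0.30 (Ddx4), and Tex101 and Dazl, without it, had -2.75 and -0.78. Ddx4, Stk31 and Dazl, the 3 measured members lower by less than 2-fold, had the most CpGs in their windows, 38, 29 and 28. With 9 measured genes this is a description only.

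Summed over the 10 members, 14058 reads were counted in E14 and 4373 in E14-Sox2TA/WT cells. These sums were 233 CPM (exact Poisson 95% interval 229 to 237) and 98.0 CPM (95.1 to 101), 2.38-fold lower in E14-Sox2TA/WT cells. Mael supplied the most of these reads, and without it the log2 ratio of the sum changed from -1.25 to -1.06.

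Broadly expressed relatives of the members were compared next, since their proteins are related to those of the members. Taf7, the ubiquitous counterpart of Taf7l, was at 85.1 and 97.2 TPM (0.19), and the somatic ADP/ATP carriers Slc25a4 and Slc25a5 had ratios of 0.14 and 0.05, against -1.94 for Slc25a31. Ddx3x, an RNA helicase related to Ddx4, had 0.73. None of these 4 differed past 2-fold, and their median was 0.17.

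The genes that flank the members were examined to see whether the differences extended along the chromosome. Of the 20 nearest genes, 9 were measured, with a median ratio of 0.01. Of the 9, 1 fell more than 2-fold, beside 8.44% of all measured genes. This was Gpa33, a cell surface antigen gene 34.9 kb from Mael, with 2553 and 712 reads and a ratio of -1.27. Golph3l, a Golgi protein gene 1.05 kb from Hormad1, was at 28.0 and 28.2 TPM (0.01), and Slc38a9, 3.56 kb from Ddx4, had -0.27. On either side of Slc25a31, Intu had -0.43 and Hspa4l 0.09, and next to Sycp3, Gnptab had 0.75.

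Other germline genes of the same pathways were counted in lists written from general knowledge. Earlier results of these data were known when the gene lists were chosen, so all list counts are a description only. Of 20 further genes of germ granules and piRNAs, 16 were measured. Of these, 6 fell more than 2-fold, beside 8.44% of all measured genes. None rose more than 2-fold, beside 5.86%, and 3 were higher by any amount. The median of the 16 was -0.67, and -1.18 over those with a mean of 5 TPM or more. Gtsf1 and Gpat2 passed this second filter through E14 alone, where they were higher, so that the second median is a description only. The 6 genes past 2-fold were Gtsf1 (-2.93), Mov10l1 (-2.04), Gpat2 (-1.89), Rnf17 (-1.43), Tdrd12 (-1.32) and Tex19.1 (-1.04). Gtsf1, a partner of Piwi proteins, went from 19.0 to 2.48 TPM, and the helicase gene Mov10l1, needed to make piRNAs, from 32.1 to 7.82 TPM. The Piwi gene Piwil2 had -0.90 and the Tudor gene Tdrkh -0.80, both short of 2-fold, and the highest value was that of Tdrd5 at 0.67. The members Mael, Ddx4 and Stk31, of the same machinery, lay within the range of this list.

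Of 22 further meiotic genes, 17 were measured, with a median of -0.87. Of these, 7 fell more than 2-fold, again beside 8.44%. None rose more than 2-fold, beside 5.86%, and 3 were higher by any amount. Stra8, the retinoic acid-induced gene of meiotic entry, changed the most, from 9054 reads (198 TPM) in E14 to 258 reads (8.40 TPM), a ratio of -4.56 or 23.5-fold lower, beyond any of the 10 members. The cohesin genes Smc1b (25.1 and 3.64 TPM, -2.79) and Rec8 (74.0 and 29.1 TPM, -1.35) also fell. The others were Hormad2 (-1.53), the paralog of Hormad1, Syce3 (-1.48) and Sycp1 (-1.04), partners of Sycp3 in the synaptonemal complex, and the recombinase gene Dmc1 (-1.31). Not all parts of this complex were lower, since Syce2 stood at 104 and 124 TPM (0.25). Below the level of measured genes, Tex12 had 38 reads in E14 and 0 in E14-Sox2TA/WT cells, and the counting interval of its log2 ratio ended at -2.72.

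**Figure D5:**
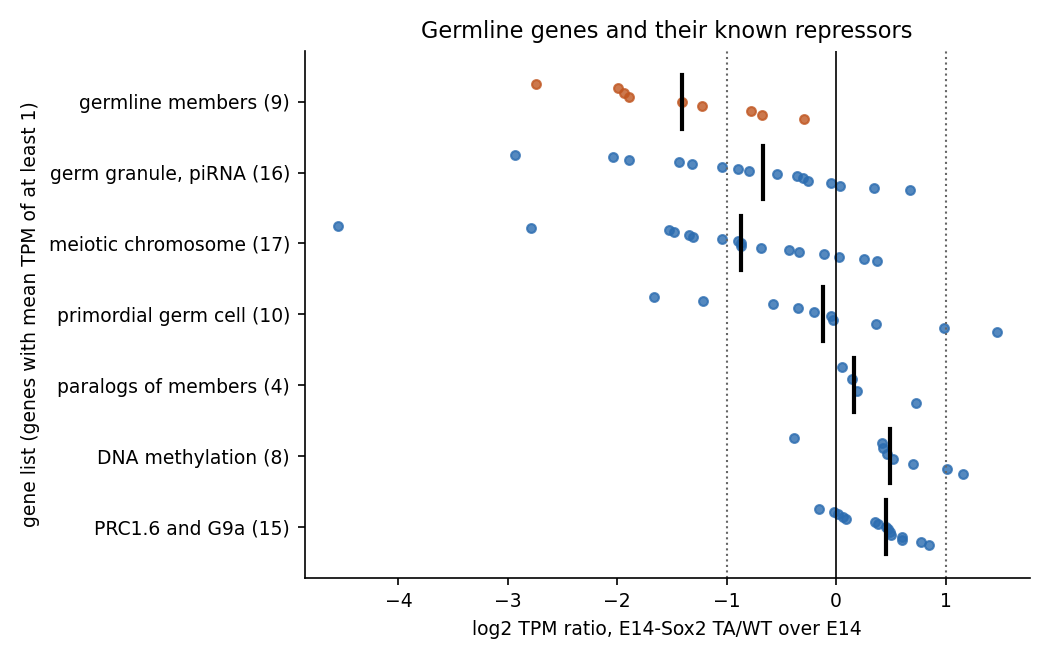
log2 TPM ratio (E14-Sox2TA/WT over E14) of each measured gene in the members and the other gene lists, 1 point per gene, with a black bar for the median of each list and dotted lines at 2-fold. The members, the germ granule and the meiotic lists lie mostly below 0, with medians of -1.41, -0.67 and -0.87, and the DNA methylation and PRC1.6 lists mostly above it.

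Genes of the last steps of sperm formation were close to absent. Of 16 late spermatid genes, 8 had no reads in either library, none reached a mean TPM of 1, and their TPM summed to 2.82 in E14 and 0.686 in E14-Sox2TA/WT cells, with the protamine genes Prm1 and Prm2 at 0. Of 10 genes of primordial germ cell specification, all measured, 2 fell more than 2-fold, beside 8.44% of all measured genes. These were Tfap2c (50.9 and 16.05 TPM, -1.67) and Alpl (246 and 106 TPM, -1.21). Prdm1 (0.80 and 2.21 TPM, 1.47) was the 1 that rose more than 2-fold, beside 5.86%. It counted as measured only through E14-Sox2TA/WT cells, where it was higher. The median of the 10 genes was -0.12, and it changed sign, to 0.054, with trends on GC content and length removed.

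Genes of DNA methylation and for repressors that act on germline promoters were mostly higher in E14-Sox2TA/WT cells. Among 8 genes that act in DNA methylation or its removal, 7 were higher by any amount, beside 53.2% of all measured genes, and 2 past 2-fold, beside 5.86%. Their median was 0.49, and 0.33 with trends on GC content and length removed. The de novo methyltransferase Dnmt3b went from 67.5 to 150 TPM (1.16, 1.12 to 1.19) and the demethylation enzyme Tet1 from 70.1 to 142 TPM (1.01, 0.99 to 1.04), whereas Dnmt3l had -0.39. By CPM, Tet1 had 0.87 and was not past 2-fold. Among 15 PRC1.6 and G9a genes, 13 were higher by any amount, beside the same 53.2%, and none past 2-fold. Of the 13, Wdr5 (0.02) and Ring1 (0.07) had counting intervals that included no change. By CPM, Wdr5 (-0.13), Ring1 (-0.08) and Max (-0.05) were lower. The median of the 15 was 0.45, but 0.31 by CPM or FPKM and 0.27 with trends on GC content and length removed. All 15 had means of 10 TPM or more. Over all genes at 10 TPM or more in either library, the median was 0.085. Of the subunits that bind the motifs above, Mga went from 26.6 to 45.6 TPM (0.78) and E2f6 from 19.0 to 26.7 TPM (0.49), and Max had 0.09. Pcgf6, the subunit that defines the complex, had -0.16. Whether these levels bear on the members was not tested.

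Markers of ESCs, of Sertoli and Leydig cells and of fibroblasts were read beside the members. Of 8 ESC markers, the median was 0.06, and 1, Nanog, fell past 2-fold (-1.07), beside 8.44% of all measured genes. This median turned to -0.074 by CPM and -0.079 by FPKM. Of 10 markers of Sertoli and Leydig cells of the testis, Fshr, Lhcgr and Cyp17a1 had no reads in either library, whereas Star had 251 and 177 reads, Gata1 160 and 57, Sox9 25 and 15, Amh 17 and 11, Insl3 7 and 2, and Hsd3b1 5 and 0. The list's TPM summed to 263 in E14 and 30.2 in E14-Sox2TA/WT cells, of which Rhox5, also an ESC gene, made up 258 and 26.1. Of 10 fibroblast markers, Dcn, Lum and Postn had no reads, whereas Col1a1 had 497 and 370 reads, Col1a2 43 and 109, Col6a1 115 and 62, Twist2 8 and 10, and Prrx1 0 and 3. Their TPM summed to 44.2 and 17.8, of which Thy1 made up 40.1 and 11.4, and Col3a1 moved the other way, from 15 to 151 reads. The part of these markers in the members' differences was not tested.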

How the data were processed

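Polyadenylated RNA of 1 library per genotype was sequenced. The authors deposited, for each gene of the mm10 build, whole-number read counts without normalization, FPKM values scaled per kilobase and to library size, and TPM values scaled to library sum. The submitters' processing notes name bcl2fastq 2.20.0, Trimmomatic, HISAT2 2.1.0 and StringTie 2.1.3b, and the builds mm10 and hg19. The use of strand and of multi-mapped reads is not given in the sources used here, so overlapping genes and genes with copies are uncertain.

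TPM ratios (E14-Sox2TA/WT over E14, no pseudocount) were computed for all 24532 genes. Intervals (95%, Clopper-Pearson for ratios, exact Poisson for CPM) and the floor of 3 reads (0.0498 CPM in E14 and 0.0673 CPM in E14-Sox2TA/WT cells) cover counting error only, because each genotype had 1 library. PCR duplicates may be counted more than once, and the intervals would then be too narrow. A gene with no reads in 1 library was set against 3 reads. The scripts were tested on simulated data. Genes could be named if they were members, genes of the lists with at least 3 reads in a library, or nearest neighbours, with list genes past 2-fold and the highest and lowest of each list first; marker genes without reads are named in addition. The members and lists were chosen with earlier results of these data known. Promoter windows, and gene positions for 24462 genes (70 lacked one), came from RefSeq GRCm38.p6. GC content, length and shared 50-base words came from GENCODE M21 transcripts. Alternatives were CPM, FPKM, TMM (edgeR 4.0.16) and median-of-ratios (DESeq2 1.42.0) scaling, other pseudocounts, filters and thresholds, and, added after the data had been seen, removal of GC and length trends, sums with Chpt1 and omission of Sycp3 and Hormad1. Python 3.11.15 and R 4.3.3 were used.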

Additional observations from a re-analysis of the deposited data

How the results depend on the processing

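All 73 alternative ratios of the 9 measured members were below 0, including the sum of Sycp3 with Chpt1. Pseudocounts cannot change a sign, and the scalings tried moved the ratios further down (median shift over measured genes -0.025 to -0.14). These alternatives thus could not reverse a lower member. Only trend removal, and for Sycp3 the sum with Chpt1, could have done so, and neither did. Asz1 has no measured direction. The median of the members ranged from -1.24 (TPM + 1) to -1.47 (GC and length trends removed). At 10 TPM or more in either library, 4 members were more than 2-fold lower, beside 4.07% of all genes under that filter, and 2 were more than 3-fold lower. With no filter the count was 7, which includes Asz1 only because its 0 reads give no finite ratio, and 6 without it. The share over all genes was not computed for 3-fold or without a filter. At a mean TPM of at least 1 the count was 6, beside 8.44% of all measured genes. With GC and length trends removed it was 8, beside 7.89%, and Dazl had -1.15, Stk31 -1.02 and Ddx4 -0.51. The log2 ratio of the summed reads, -1.25, was -1.15 with TMM, -1.13 with median-of-ratios scaling and -1.06 without Mael. CPM and FPKM moved the median of all genes by -0.14, and that of the 4 relatives of the members from 0.17 to 0.024. The median of the primordial germ cell list was -0.12, -0.28 with CPM and 0.054 with GC and length trends removed, and that of the ESC markers went from 0.06 to -0.074 with CPM and -0.079 with FPKM. With 1 library per genotype, the spread between cultures is unknown, and depth limits Asz1 in particular.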
